A study of Mus musculus with 15 samples.

Results

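Solute carriers are the membrane proteins that move sugars, amino acids, vitamins, ions and other small molecules into, through and out of cells, and 139 of their genes were followed here across the jejunal epithelium of 4 groups of mice. The genes were chosen from Illumina bead array values on a log2 scale. Each gene was represented by its brightest probe, judged by the mean of the 15 arrays. A gene was kept when its symbol began with Slc or Slco and a number and that mean was above 6.5. Of 337 genes with such a name among 16592 genes, 147 lay above the level, and 8 of these belonged to 10 genes that the rule leaves out by name (Slc12a2, Slc2a6, Slc12a8, Slc40a1, Slc11a2, Slc51a, Slc51b, Slc10a2, Slc9a3r1 and Slc7a11). The last genes inside the level were Slc25a42 at 6.51, Slc17a8 at 6.55 and Slc38a10 at 6.61, and the first outside it were Slc8a1 at 6.46, Slc1a3 at 6.45 and Slc16a13 at 6.41. In 111 of the 139 genes the mean of every group was above 6.5. The other 28 had at least 1 group mean at or under it, so that some entered through the groups in which they were high, and 9 of them had a group mean no higher than 5.90, the highest median of any array over all probes. The file holds no detection call, and that median serves here as a mark for dim signal.

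The mice carried the tamoxifen-inducible recombinase VillinCreERT2, which the villin promoter drives in the epithelium of the intestine, together with floxed alleles of Brg1 (Smarca4, the ATPase of the SWI/SNF chromatin remodelling complex), of Apc (a negative regulator of Wnt signalling), or of both. Controls were Cre-negative (VillinCreERT2-, n = 4, floxed alleles not given). Brg1 deficient mice were VillinCreERT2+ Brg1fl/fl (n = 4), Apc deficient mice VillinCreERT2+ Apcfl/fl Brg1+/+ (n = 3) and Brg1-Apc deficient mice VillinCreERT2+ Apcfl/fl Brg1fl/fl (n = 4). All 4 groups, controls included, received 4 daily injections of 80 mg/kg tamoxifen, and epithelium scraped off the jejunal wall was taken at day 4. Cre was thus present in every mutant group and absent from the controls. In comparisons with control, an effect of Cre cannot be told apart from that of the lost gene. Ages, sexes and strains are not given. The comparisons ask how loss of Brg1 bears on the epithelium with normal and with activated Wnt signalling.

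Absorption of most nutrients runs through a pair of membranes. Carriers of the brush border take up sugars, amino acids, peptides, vitamins and minerals from the lumen, often with sodium or protons, and carriers of the basolateral membrane pass them on to the blood. Many of these carriers are found mainly in mature enterocytes of the villus, whereas dividing crypt cells use other carriers to feed their own growth. Solute carriers of mitochondria, the Golgi apparatus and lysosomes serve the cell's interior.

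The arrays carried 25695 probes and their medians over all probes ranged from 5.59 to 5.90. The fourth Brg1 deficient array was unlike the rest: its interquartile range was 1.23, where the others had 1.89 to 2.56, and its mean correlation with its own group was 0.893. The Smarca4 probe, the check of the deleted gene, averaged 7.55 ± 0.17 (SD, n = 4) in controls and 8.15 ± 0.26 (n = 3) with Apc alone lost. It averaged 6.20 ± 0.14 (n = 4) where Brg1 alone was lost and 6.08 ± 0.06 (n = 4) where both were. The mean of 7 measured enterocyte markers was between 12.1 and 12.3 in controls, 12.1 and 12.4 in Brg1 deficient, 10.9 and 11.6 in Apc deficient and 11.6 and 12.2 in Brg1-Apc deficient mice. That of 6 T cell and intraepithelial lymphocyte markers was between 6.33 and 6.97 in controls and 5.65 and 5.93 in Apc deficient mice. In control replicate 4 the mean of 6 pancreatic acinar markers was 9.98, against at most 5.66 on every array of the other genotypes, and in control replicate 1 that of 6 smooth muscle markers was 9.58. In scraped tissue, fewer cells of a type and less RNA per cell cannot be told apart. The part of these shifts in the results below was not tested.

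Most of the movement was downward and followed the loss of Apc. Of the 139 genes, 50 fell and 14 rose in Apc deficient mice against controls (adjusted p under 0.05 over all probes), 46.0% of the genes. Over all probes 13.2% were called, and 34.0% of the 6286 genes above the same level. Falls made up 36.0% of the solute carriers and 15.8% of the genes above the level, and rises 10.1% and 18.2%. Of the 111 genes with every group mean above 6.5, 38 fell and 11 rose. The median difference of the 139 genes was -0.51 on the log2 scale, against -0.02 over all probes, and 102 of them had a lower mean in Apc deficient mice. The arrays of the 2 groups did not overlap in any of the 50 genes that fell and in 13 of the 14 that rose. All 64 had the same sign on each of the 2 slides. Arrays without overlap made up 26.8% of all probes, called or not. The 64 were chosen by the test on these same arrays. Their separation and shared signs are largely given by that choice and are description only. Without Apc deficient replicate 2 the number that rose was 9.

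With Apc intact, loss of Brg1 called 13 of these genes. In Brg1 deficient mice 3 rose and 10 fell, 9.35% of the genes, where 2.81% of all probes and 7.86% of the genes above the level were called (1.80% rose and 6.06% fell). Of the 111 genes with every group mean above 6.5, 2 rose and 4 fell. Quantile normalization of the same values turned this split to 9 that rose and 8 that fell, and the median of the 139 genes from -0.22 to 0.08. On the deposited values the median of all genes above the level was -0.23, so the -0.22 is not particular to the carriers. The 3 rises became 1 without control replicate 1 or control replicate 2, 5 when the first Brg1 deficient array was left out and 6 when the fourth was. The total was 8 without control replicate 1 or 2.

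With both genes lost, 25 of the 139 genes were called. Against control, 5 rose and 20 fell (18.0%, where 6.11% of all probes and 16.0% of the genes above the level were called, 8.57% as rises and 7.43% as falls), and among the 111 genes above 6.5 in every group 4 rose and 12 fell. Against Apc deficient mice, 29 rose and 9 fell (27.3%, where 7.18% of all probes and 17.9% of the genes above the level were called). Rises made up 20.9% of the carriers in that comparison and 9.50% of the genes above the level, where falls made up 8.37%. Without Apc deficient replicate 2 they numbered 11, with 5 falls, and with the first or the fourth Brg1-Apc deficient array left out they numbered 19 each. Against Brg1 deficient mice, 8 rose and 7 fell (10.8%, where 5.39% of all probes and 15.8% of the genes above the level were called, 13.6% as rises and 2.20% as falls). Quantile normalization gave 5 and 11 there, 20 fell without Brg1 deficient replicate 4, and 3 rose without Brg1-Apc deficient replicate 3 (5 without replicate 4). In the comparison with control, leaving out Brg1 deficient replicate 4 from the shared estimate of the spread gave 9 rises and 36 falls, leaving out control replicate 4 gave 3 and 13, and 3 rose without control replicate 3 or Brg1-Apc deficient replicate 3.

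**Figure D1:**
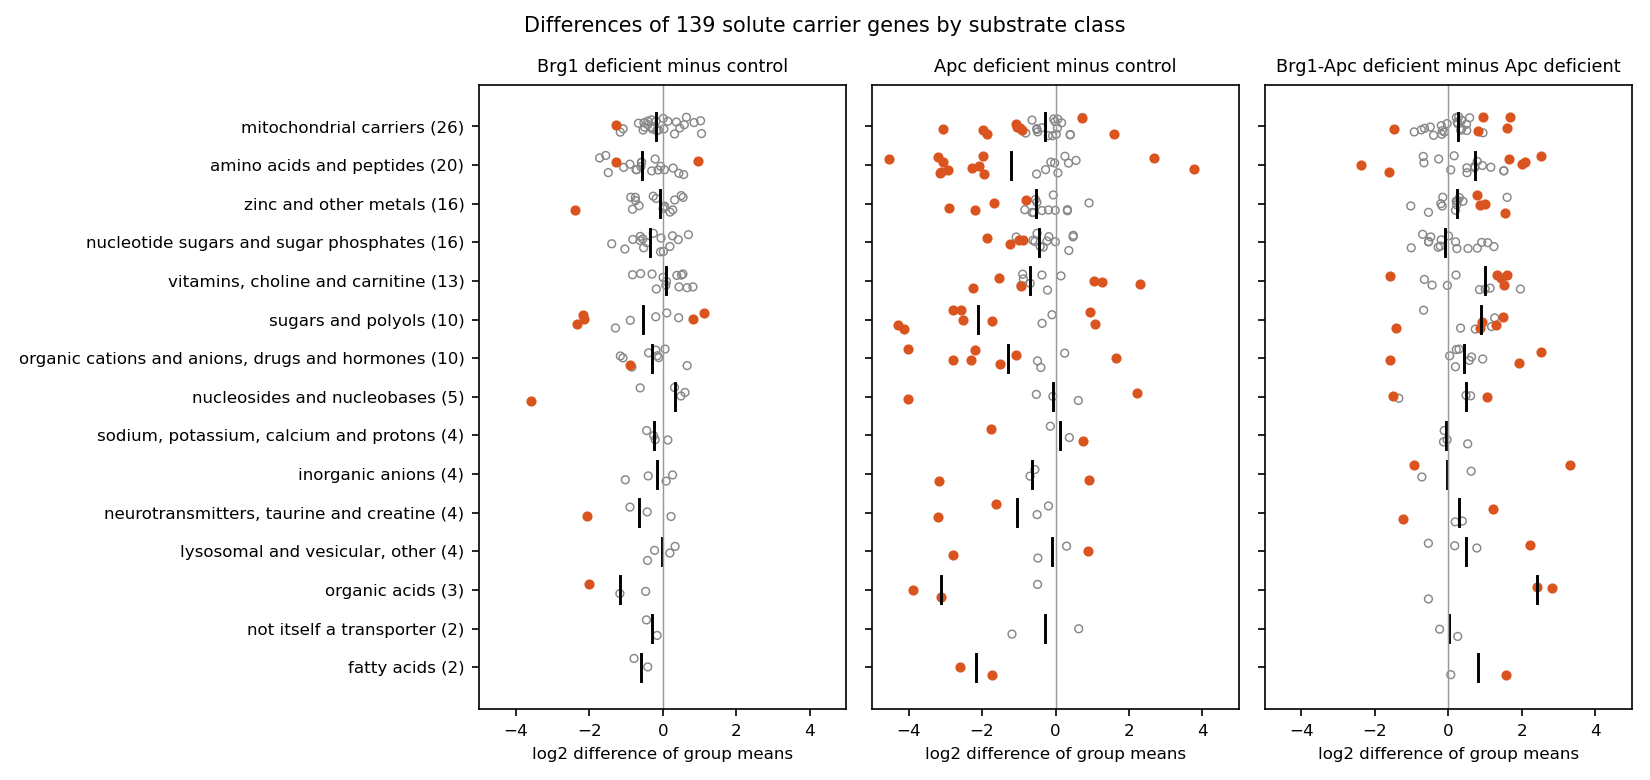
Differences between group means on the log2 scale (horizontal axis) for the 139 solute carrier genes by substrate class (vertical axis, number of genes in brackets), with 1 panel each for loss of Brg1, loss of Apc (both against control) and loss of both relative to loss of Apc. Filled points passed an adjusted p of 0.05, open points did not, and black bars are class medians: in Apc deficient mice 14 of the 15 class medians lay below 0.

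Several sugar carriers fell far. In Apc deficient mice 6 of 10 sugar and polyol carriers fell and 2 rose (class median -2.12, against -0.02 for all probes). Of the genes above the level 15.8% fell and 18.2% rose. Slc5a4a and Slc5a4b, neighbouring genes on chromosome 10 with 2 other genes between them and members of the sodium/glucose cotransporter family, fell together. Their start regions are shown because the pair moved in parallel. Both are RefSeq windows of build GRCm38.p6, 250 bases before to 50 after the annotated start, Slc5a4a at chr10:76147201-76147500 on the plus strand and Slc5a4b at chr10:76110969-76111268 on the minus strand. Capitals mark the only run of 9 or more bases that the windows share at any offset, 10 bases long and just after the start in both.
Slc5a4a: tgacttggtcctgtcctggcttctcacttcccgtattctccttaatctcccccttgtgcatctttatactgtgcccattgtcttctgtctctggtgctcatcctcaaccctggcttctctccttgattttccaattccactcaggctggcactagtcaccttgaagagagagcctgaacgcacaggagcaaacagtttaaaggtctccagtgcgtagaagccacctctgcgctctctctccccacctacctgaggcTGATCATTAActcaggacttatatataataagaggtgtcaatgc
Slc5a4b: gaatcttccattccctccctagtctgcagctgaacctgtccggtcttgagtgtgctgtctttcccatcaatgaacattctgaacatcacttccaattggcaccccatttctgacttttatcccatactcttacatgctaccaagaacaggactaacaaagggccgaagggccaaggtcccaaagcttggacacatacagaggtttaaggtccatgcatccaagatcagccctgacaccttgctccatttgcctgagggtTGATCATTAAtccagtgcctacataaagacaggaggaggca

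Slc5a4b was at 10.13, 9.55, 10.21 and 10.20 in controls, 7.25, 7.0, 7.67 and 8.85 in Brg1 deficient, 5.78, 5.57 and 5.86 in Apc deficient and 7.23, 6.52, 6.41 and 7.5 in Brg1-Apc deficient mice. Every control array lay above every array of the other genotypes, and all Apc deficient arrays were at the level of the median probe. The difference from control was -2.33 (SE 0.34, adjusted p = 0.000943) with Brg1 lost, -4.28 (SE 0.36, adjusted p = 1.75e-06) with Apc lost and -3.11 (SE 0.34, adjusted p = 6.38e-05) with both lost. Slc5a4a was at 10.06, 8.45, 9.38 and 9.38 in controls, 6.45, 7.15, 7.41 and 7.68 in Brg1 deficient, 5.22, 5.39 and 4.96 in Apc deficient and 6.21, 5.29, 5.21 and 6.99 in Brg1-Apc deficient mice. Its differences from control were -2.14, -4.13 and -3.39 in that order, with the control arrays again above all others. How far the probes of these near relatives tell them apart is not known from the files, so the pair is not counted as independent evidence. Slc5a11, a sodium/myo-inositol cotransporter, followed the same order, at -2.18 (adjusted p = 0.00272), -2.78 (adjusted p = 0.000154) and -2.45 (adjusted p = 0.000676). These 3 genes were called in all 3 comparisons with control, and each call held whichever single array was left out. The Apc deficient means of Slc5a4a and Slc5a4b were under 6.5, as was the Brg1-Apc deficient mean of Slc5a4a. Slc5a4a owed its place in the set to its high control arrays. Its falls from control are therefore not independent of the choice of the gene, and its calls are description only.

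Slc5a1, the sodium/glucose cotransporter of the brush border and the main route of glucose uptake, was at 12.85, 12.78, 13.02 and 12.77 in controls, 11.89, 12.53, 12.66 and 10.80 in Brg1 deficient, 10.80, 9.80 and 10.41 in Apc deficient and 12.03, 10.78, 12.02 and 12.48 in Brg1-Apc deficient mice. The Apc deficient arrays lay below all controls and met only the lowest array of the Brg1-Apc deficient group. The difference between these 2 groups was 1.49 (SE 0.41, adjusted p = 0.0379), a call that ended without any of 9 of the 15 arrays (adjusted p between 0.0501 and 0.221, highest without Apc deficient replicate 2). Slc2a2, the facilitative glucose carrier of the basolateral membrane, fell by 2.56 in Apc deficient mice (adjusted p = 0.0207), but not past the test without Apc deficient replicate 2 (adjusted p = 0.171) or control replicate 3 (0.0507). It varied widely within groups, from 6.39 to 9.20 in Apc deficient and from 7.32 to 10.50 in Brg1-Apc deficient mice. Slc2a1, the facilitative glucose carrier of most dividing cells, ran the other way. It was at 9.71, 10.37 and 10.25 in Apc deficient mice, between 8.79 and 9.26 in controls and between 8.27 and 8.88 in Brg1-Apc deficient mice, a rise of 1.08 (SE 0.22, adjusted p = 0.00304) and, with Brg1 also lost, a difference of -1.42 from Apc deficient mice (adjusted p = 0.000903). Within the sugar class Slc5a1 and Slc2a2 fell and Slc2a1 rose with loss of Apc.

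Amino acid and peptide carriers also moved in both directions. In Apc deficient mice 10 of 20 fell and 2 rose (class median -1.22), where 15.8% of the genes above the level fell and 18.2% rose. At the brush border, Slc15a1, the proton-coupled carrier of small peptides, was at 9.05, 8.67, 8.57 and 8.40 in controls and 5.77, 5.23 and 5.59 in Apc deficient mice, a difference of -3.14 (SE 0.45, adjusted p = 0.000185). In Brg1-Apc deficient mice it was between 6.45 and 6.93, a difference of -1.98 from control (adjusted p = 0.00843). Neither group overlapped the controls. Slc1a1, the carrier of glutamate and aspartate, was at 10.28, 9.85, 10.27 and 9.90 in controls, 10.94, 11.55, 10.88 and 10.78 in Brg1 deficient, 7.02, 7.07 and 6.57 in Apc deficient and 8.91, 9.42, 9.30 and 10.04 in Brg1-Apc deficient mice. Brg1 deficient arrays lay above all controls and Apc deficient arrays below every other array. It fell by 3.19 with Apc lost (SE 0.26, adjusted p = 1.56e-06) and was 2.53 higher in Brg1-Apc deficient than in Apc deficient mice (SE 0.26, adjusted p = 2.89e-05). A further probe of Slc1a1 (mean 6.91) kept the fall (-1.69, adjusted p = 0.0263) but not the second call (1.48, adjusted p = 0.0758).

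Slc36a1, which takes up small neutral amino acids with protons, fell by 3.11 (adjusted p = 8.53e-06), and stood 1.65 higher in Brg1-Apc deficient than in Apc deficient mice (adjusted p = 0.00394) but differed by -1.40 from Brg1 deficient mice (adjusted p = 0.00721). Slc7a9, the light chain of the cystine and dibasic amino acid carrier, fell by 2.09 in Apc deficient mice (adjusted p = 3.72e-05) and was back at the control level in Brg1-Apc deficient mice, with means of 12.1 in both. Its heavy chain gene Slc3a1 was not measured. The call of Slc7a9 in both comparisons ended on its most variable probe, which was dim beside the others (mean 6.85). A further probe of Slc7a9 (mean 11.3) was called in both, at -2.18 (adjusted p = 0.000701) and 1.97 (adjusted p = 0.00369). Slc6a19, the main neutral amino acid carrier of the brush border, was at 10.98, 9.12 and 10.70 in Apc deficient mice and between 11.89 and 12.54 in controls. Its difference of -1.96 (adjusted p = 0.0313) ended without Apc deficient replicate 2 (adjusted p = 0.22), control replicate 1 (0.0541), control replicate 3 (0.0739) or control replicate 4 (0.0791).

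On the basolateral side and with Apc lost, Slc7a8, the light chain of a neutral amino acid exchanger, had the largest fall of the 139 genes in that comparison. It was at 11.88, 11.91, 12.06 and 12.13 in controls, 10.09, 10.92, 10.21 and 10.83 in Brg1 deficient, 8.31, 7.22 and 6.86 in Apc deficient and 9.60, 7.95, 8.94 and 11.35 in Brg1-Apc deficient mice. The control arrays lay above all others. The difference between Apc deficient and control mice was -4.53 (SE 0.54, adjusted p = 4.42e-05), 23.2-fold on the linear scale. The Brg1-Apc deficient arrays spread over more than 3 log2 units and reached down into the Apc deficient range. Their call against Apc deficient mice (2.0, adjusted p = 0.0341) ended without Apc deficient replicate 2 (adjusted p = 0.16) or 3 (0.118) and without Brg1-Apc deficient replicate 1 (0.0718) or 4 (0.0667).

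Slc7a7, the light chain of the exchanger that exports dibasic amino acids, fell by 3.05 in Apc deficient mice (adjusted p = 0.000153) and by 2.33 in Brg1-Apc deficient mice (adjusted p = 0.00186), and the latter group differed by -1.75 from Brg1 deficient mice (adjusted p = 0.0127). Slc43a2, a facilitative neutral amino acid carrier, fell by 2.93 (adjusted p = 0.000355). Slc16a10, the carrier of aromatic amino acids, fell by 1.93 (adjusted p = 0.0114) with a call that ended without Apc deficient replicate 2 (adjusted p = 0.0824). The heavy chain Slc3a2, partner of several of these light chains, was measured near the median probe (mean 5.77) and gave no call.

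Brush border and basolateral carriers can be read as lists. Beside them, 15.8% of the genes above the level fell and 18.2% rose in Apc deficient mice against control. In Brg1-Apc deficient mice 9.50% rose and 8.37% fell against Apc deficient mice, and 7.43% fell against control. Of 15 uptake carriers of the brush border among the 139 genes, 11 fell and none rose in Apc deficient mice (median -2.52), and with Brg1 also lost 10 rose and none fell relative to Apc deficient mice (median 1.52, 6 without Apc deficient replicate 2). Against control, 3 of the 15 remained lower in Brg1-Apc deficient mice, namely Slc28a1, Slc15a1 and Slc36a1. Slc28a1, also among the 11 that fell, entered the set through its control arrays alone. Of 8 basolateral carriers, 6 fell and 1, Slc29a1, rose with Apc lost (median -2.38), and 2, Slc7a8 and Slc7a7, were lower than control with both lost. The remaining listed carriers lay under the level. Of the 8 measured brush border carriers there, Slc34a2, a sodium/phosphate cotransporter, was called lower in Apc deficient mice (-1.66, adjusted p = 0.00841). Among 15 measured proteins that work with these carriers, the scaffold Pdzk1 fell by 3.19 in Apc deficient mice (adjusted p = 0.00737, and 0.0576 without Apc deficient replicate 2). The efflux pumps Abcc2 and Abcc3 differed by -1.94 and -2.10. The sodium pump modulator Fxyd3 and the pump subunit Atp1b3 rose by 1.65 and 1.39, the latter with an adjusted p of 0.0813 without Apc deficient replicate 2. Slc9a2, Slc9a3 and Slc5a12 of the brush border list were not measured.

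**Figure D2:**
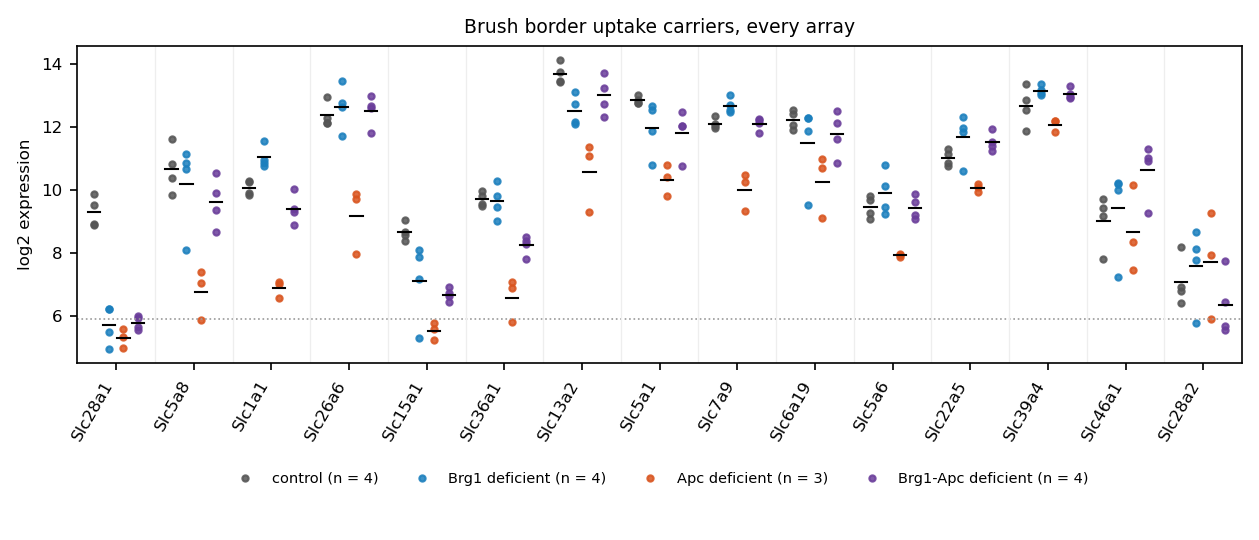
Log2 expression (vertical axis) of the 15 brush border uptake carriers on each of the 15 arrays, ordered by their difference between Apc deficient and control mice. Points are arrays, coloured by genotype, short bars are group means, and the dotted line is the highest array median over all probes (5.90). Apc deficient arrays lie below all controls in the 11 genes called, and Slc28a1 is at or near the dotted line in every group but control.

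**Figure D3:**
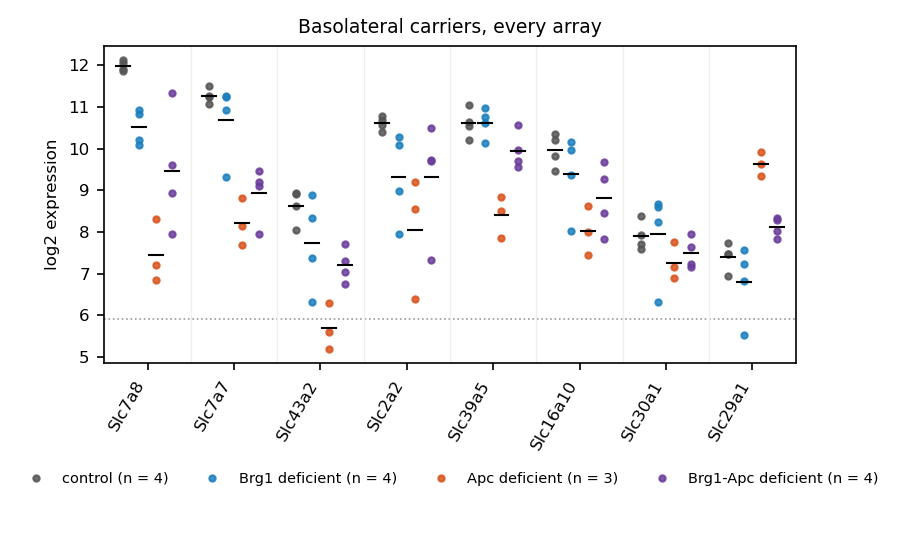
Log2 expression (vertical axis) of the 8 basolateral carriers on each of the 15 arrays, with points, bars and dotted line as for the brush border carriers. In 6 genes the Apc deficient arrays lie below all controls, and in Slc29a1 they lie above every other array.

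Slc28a1, the concentrative carrier of pyrimidine nucleosides at the brush border, fell in all 3 mutant groups. It was at 9.89, 8.88, 9.53 and 8.94 in controls, 4.97, 5.49, 6.23 and 6.23 in Brg1 deficient, 4.98, 5.34 and 5.60 in Apc deficient and 5.64, 6.0, 5.56 and 5.94 in Brg1-Apc deficient mice. All control arrays lay well above all others, and the mutant groups overlapped one another around the median probe. Differences from control were -3.58 (SE 0.29, adjusted p = 8.66e-06), -4.00 (SE 0.31, adjusted p = 8.36e-07) and -3.52 (SE 0.29, adjusted p = 7.52e-06). Slc28a1 was above 6.5 in controls alone and entered the set through them. A fall from that group is therefore not independent of the choice of the gene, and these p-values are description only. The purine-preferring relative Slc28a2 gave no call, with control arrays between 6.41 and 8.20 and Apc deficient arrays between 5.91 and 9.26.

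The equilibrative nucleoside carrier Slc29a1, which works down the gradient at the plasma membrane, was at 7.74, 7.46, 6.94 and 7.49 in controls, 7.57, 7.23, 5.53 and 6.83 in Brg1 deficient, 9.63, 9.92 and 9.35 in Apc deficient and 8.35, 7.84, 8.28 and 8.03 in Brg1-Apc deficient mice. Apc deficient arrays were above all others, and Brg1-Apc deficient arrays lay between them and the controls. The rise of 2.23 (SE 0.36, adjusted p = 0.000438) was larger than the spread, and the step down to Brg1-Apc deficient mice was -1.51 (adjusted p = 0.0163, and 0.0553 or 0.107 without Apc deficient replicate 1 or 2). Slc29a3, the nucleoside carrier of lysosomes, gave no call with Apc lost (-0.07) but was higher in Brg1-Apc deficient mice than in controls (0.97, adjusted p = 0.0122) and than in Apc deficient mice (1.04, adjusted p = 0.0118). The first call ended without Brg1-Apc deficient replicate 3 (adjusted p = 0.0501) or control replicate 4 (0.0519), and the second without Apc deficient replicate 1 (0.0731).

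Carriers of organic and inorganic anions were among those that fell with loss of Apc and were called higher in Brg1-Apc deficient mice. Slc26a6, an exchanger of chloride, bicarbonate and oxalate, was at 12.12, 12.13, 12.95 and 12.29 in controls, 11.72, 12.64, 13.45 and 12.75 in Brg1 deficient, 9.73, 7.99 and 9.87 in Apc deficient and 12.62, 11.80, 12.68 and 12.98 in Brg1-Apc deficient mice. Only the Apc deficient arrays stood apart, below every other array. It fell by 3.18 (SE 0.44, adjusted p = 0.000143), and the rise of 3.32 (SE 0.44, adjusted p = 0.00025) from Apc deficient to Brg1-Apc deficient mice was the largest among the 139 genes. Slc13a2, the sodium-coupled carrier of dicarboxylates and citrate, was at 13.44, 13.46, 13.74 and 14.13 in controls, 12.15, 12.74, 13.11 and 12.11 in Brg1 deficient, 11.38, 9.31 and 11.08 in Apc deficient and 13.25, 12.33, 12.74 and 13.72 in Brg1-Apc deficient mice. The Apc deficient arrays again lay below all others. The difference from control was -3.11 (adjusted p = 0.000133), and Brg1-Apc deficient mice were 2.42 higher (adjusted p = 0.00228).

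Slc5a8, the sodium-coupled carrier of short-chain monocarboxylates, fell by 3.89 in Apc deficient mice (SE 0.63, adjusted p = 0.000466) and stood 2.83 higher in Brg1-Apc deficient mice (adjusted p = 0.011, and 0.0958 without Apc deficient replicate 2). Slc16a6, a member of the monocarboxylate carrier family, was at 7.95, 8.39, 8.90 and 8.68 in controls and 6.63, 6.78, 7.05 and 5.42 in Brg1 deficient mice, a difference of -2.01 (SE 0.36, adjusted p = 0.0052). No other comparison called it on this probe. Of its 2 further probes, neither was called in Brg1 deficient mice (adjusted p = 0.156 and 0.873). The one near the dim mark (mean 5.92) was called in Brg1-Apc deficient mice against control (-0.88, adjusted p = 0.0251) and against Apc deficient mice (-1.24, adjusted p = 0.00464). Both fatty acid carriers fell with Apc lost. Slc27a4, a fatty acid transport protein of enterocytes, fell by 2.59 (adjusted p = 0.00087) and Slc27a2, an acyl-CoA synthetase of very long chains, by 1.73 (adjusted p = 0.0089, and 0.0632 without Apc deficient replicate 3). Slc27a2 was also lower in Brg1-Apc deficient mice than in controls (-1.67, adjusted p = 0.0148, and 0.0575 without control replicate 4), whereas Slc27a4 was not called against control there (-1.02).

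The carriers of serotonin, taurine and creatine differed from one another. Slc6a4, the serotonin carrier, was at 10.69, 10.64, 10.65 and 10.84 in controls, 9.90, 10.31, 9.58 and 9.45 in Brg1 deficient, 7.77, 7.48 and 7.30 in Apc deficient and 7.94, 6.82, 7.56 and 8.51 in Brg1-Apc deficient mice. Both groups without Apc lay below both groups with it, without overlap, and overlapped each other. It fell by 3.19 (SE 0.31, adjusted p = 5.94e-06) with Apc lost and by 3.00 (SE 0.28, adjusted p = 1.76e-05) with both lost. The step between Brg1 deficient and Brg1-Apc deficient mice, -2.11 (adjusted p = 0.000349), was the largest fall in that comparison.

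Slc6a6, the taurine carrier, followed Brg1 instead. It was at 12.77, 12.78, 13.14 and 13.34 in controls, 11.10, 11.14, 10.66 and 10.86 in Brg1 deficient, 12.32, 12.54 and 12.66 in Apc deficient and 11.45, 10.80, 11.27 and 11.59 in Brg1-Apc deficient mice. Both groups without Brg1 lay below both groups with it, and no array of the former reached the latter. With Brg1 lost it fell by 2.07 with Apc intact (SE 0.21, adjusted p = 4.47e-05) and by 1.23 with Apc lost (SE 0.22, adjusted p = 0.00306). Apc deficient against control mice gave no call (-0.50). Slc6a8, the creatine carrier, fell by 1.61 in Apc deficient mice (adjusted p = 0.00316). Its rise of 1.22 with Brg1 also lost (adjusted p = 0.0346) ended without Apc deficient replicate 2 (adjusted p = 0.248) or with Brg1-Apc deficient replicate 1 (0.0909) or 4 (0.11) left out.

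Carriers of drugs, hormones and other organic ions fell in 6 of 10 genes with Apc lost and rose in 1 (class median -1.30). The shares among the genes above the level were 15.8% and 18.2%. Slc47a1, a proton-coupled exporter of organic cations, was at 11.15, 11.65, 11.15 and 12.24 in controls, 8.90, 6.59 and 7.08 in Apc deficient and 10.62, 9.06, 9.60 and 10.95 in Brg1-Apc deficient mice. These 3 groups did not overlap and Brg1-Apc deficient mice lay in between. It fell by 4.02 with Apc lost (adjusted p = 9.54e-05) and was 2.53 higher in Brg1-Apc deficient mice (adjusted p = 0.0071, and 0.0725 without Apc deficient replicate 2). Its 2 further probes above the dim mark (means 6.94 and 6.93) kept the fall (-2.45 and -2.95, adjusted p = 0.000125 and 0.000185). Neither called the step from Apc deficient to Brg1-Apc deficient mice (0.82 and 1.15, adjusted p = 0.162 and 0.117). Slco2b1, an uptake carrier of organic anions, and Slc22a18, an organic cation carrier-like protein, were low in both groups without Apc. Slco2b1 fell by 2.80 with Apc lost (adjusted p = 9.44e-05) and differed by -2.76 with both lost (adjusted p = 0.000181). Slc22a18 fell by 2.19 (adjusted p = 1.94e-05) and by 1.90 (adjusted p = 0.000122), and differed by -0.90 with Brg1 alone lost (adjusted p = 0.0371). That last call ended without any of 10 of the 15 arrays (adjusted p between 0.0502 and 0.115). Neither gene was called between the groups without Apc. Slco3a1, another organic anion carrier, was the 1 riser, at 9.08, 8.70 and 9.31 in Apc deficient against 7.13 to 7.57 in control mice (1.65, adjusted p = 0.0011), and it differed by -1.59 between Brg1-Apc deficient and Apc deficient mice (adjusted p = 0.00371).

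Vitamin, choline and carnitine carriers moved both ways. In Apc deficient mice 3 of 13 rose and 3 fell (5 without Brg1 deficient replicate 4). Among the genes above the level 18.2% rose and 15.8% fell, so counts this small are not read as a trait of the class. The risers were Slc19a1, Slc19a2 and Slc23a3, and the last, a carrier of unsettled substrate, was placed in this class by its family name. Slc19a1, the reduced folate carrier, was at 7.43, 7.96, 7.88 and 8.43 in controls, 8.07, 8.49, 9.25 and 7.92 in Brg1 deficient, 9.95, 10.49 and 10.19 in Apc deficient and 9.19, 9.37, 9.87 and 9.81 in Brg1-Apc deficient mice. Both groups without Apc lay above all controls, by 2.29 (SE 0.31, adjusted p = 0.000111) and 1.64 (SE 0.28, adjusted p = 0.00227). Slc19a2, the thiamine carrier, also rose, by 1.27 (adjusted p = 0.000457) and 0.83 (adjusted p = 0.0139, and 0.0555 without control replicate 3). Slc46a1, the proton-coupled folate carrier of the brush border, gave no call in any comparison and was spread from 7.48 to 10.16 over the 3 Apc deficient arrays.

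Slc5a6, which takes up biotin and pantothenate, was at 7.99, 7.95 and 7.87 in Apc deficient mice, below the controls at 9.08 to 9.81 and the Brg1-Apc deficient arrays at 9.10 to 9.87. It fell by 1.53 (adjusted p = 0.00293), and the difference between the mutant groups was 1.51 (adjusted p = 0.00725). Slc22a5, the carnitine carrier, was not called with Apc lost (-0.94) but was 1.45 higher in Brg1-Apc deficient mice (adjusted p = 0.00976, and 0.0653 without Apc deficient replicate 2), a call that also ended on its most variable probe. Slc44a2, a choline carrier-like protein, was called against control in Brg1-Apc deficient mice alone. It was at 8.38, 7.37, 7.91 and 8.24 in controls, 8.98, 8.81, 8.20 and 9.22 in Brg1 deficient, 8.17, 8.24 and 7.97 in Apc deficient and 9.81, 10.13, 9.48 and 9.48 in Brg1-Apc deficient mice. The last group lay above every other array, 1.74 over control (SE 0.25, adjusted p = 0.000606) and 1.6 over Apc deficient mice (SE 0.27, adjusted p = 0.00182).

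Metal carriers fell in 4 of 16 genes with Apc lost and rose in none (class median -0.53, and 2 falls without Apc deficient replicate 2). Of the genes above the level, 15.8% fell and 18.2% rose, and so small a count is not read as a trait of the class. Slc39a5, the zinc importer of the basolateral membrane, fell by 2.20 (adjusted p = 0.000102). It was 1.54 higher in Brg1-Apc deficient mice (adjusted p = 0.00373), a call that ended on its most variable probe. Another Slc39a5 probe (mean 9.38) kept that call, at 1.77 (adjusted p = 0.00996), and those with means of 8.51 and 5.48 did not. Slc39a4, the zinc importer of the brush border, was not called with Apc lost (-0.59). Its difference of 0.99 between Brg1-Apc deficient and Apc deficient mice (adjusted p = 0.0309) was gone on its most variable probe, where it was -0.00208, and ended without any 1 of the 7 arrays of those groups (adjusted p between 0.0519 and 0.173). Slc41a2, a magnesium carrier, was low in every mutant group, at 9.64, 9.71, 9.98 and 9.95 in controls, 7.45, 8.16, 7.80 and 6.30 in Brg1 deficient, 7.56, 6.38 and 6.81 in Apc deficient and 7.29, 5.93, 7.32 and 8.15 in Brg1-Apc deficient mice. The mutant groups overlapped one another and none reached a control. They also shared Cre, which the controls lacked. The differences of Slc41a2 cannot be told apart from an effect of Cre. These differences from control were -2.39 (adjusted p = 0.00404), -2.90 (adjusted p = 0.000347) and -2.64 (adjusted p = 0.00112). Slc31a1, the copper importer, fell by 0.79 in Apc deficient mice (adjusted p = 0.0117, and 0.0541 without Apc deficient replicate 2).

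Mitochondrial and Golgi carriers had class medians nearer to 0 than the sugar and amino acid carriers. Of 26 mitochondrial carriers, 7 fell and 2 rose in Apc deficient mice (class median -0.28), and of 16 carriers of nucleotide sugars and sugar phosphates of the Golgi apparatus and endoplasmic reticulum, 4 fell and none rose (class median -0.46). The latter count was 0 without Apc deficient replicate 2, 1 without control replicate 3, and 2 without Apc deficient replicate 1 or control replicate 4. Beside both classes, 15.8% of the genes above the level fell and 18.2% rose, and neither count of falls is read as a trait of its class. Slc25a45, a mitochondrial carrier, had the largest fall in its class. It was at 12.74, 12.89, 12.76 and 13.13 in controls, 11.14, 11.45, 12.35 and 12.27 in Brg1 deficient, 10.67, 8.89 and 9.88 in Apc deficient and 11.60, 10.64, 11.08 and 12.30 in Brg1-Apc deficient mice. Control arrays lay above all others, and it fell by 3.07 in Apc deficient mice (adjusted p = 0.000118). Slc25a5, the ADP/ATP translocase, was the brightest carrier of the class (mean 14.70) and was not called, at -0.37 with Apc lost. Slc25a20, which exchanges carnitine and acylcarnitine, was 1.69 higher in Brg1-Apc deficient than in Apc deficient mice (adjusted p = 0.0193, and 0.12 or 0.0554 without Apc deficient replicate 2 or the third Brg1-Apc deficient array). That gene too lost its call on its most variable probe. Slc46a3, a lysosomal carrier, fell by 2.78 with Apc lost (adjusted p = 0.00279).

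Slc25a33, a mitochondrial carrier of pyrimidine nucleotides, moved up with loss of Apc and down with loss of Brg1. It was at 7.32, 7.64, 6.55 and 8.18 in controls, 6.61, 6.30, 5.64 and 6.04 in Brg1 deficient, 8.89, 9.43 and 8.75 in Apc deficient and 7.58, 7.38, 7.59 and 7.62 in Brg1-Apc deficient mice. Apc deficient arrays were the highest, Brg1 deficient arrays reached up to the lowest control, and Brg1-Apc deficient arrays lay within the control range. The rise was 1.6 with Apc lost (SE 0.31, adjusted p = 0.00205), and the effect of Brg1 loss was -1.27 with Apc intact (adjusted p = 0.0237) and -1.48 with Apc lost (adjusted p = 0.00818). The -1.27 ended without control replicate 1 (adjusted p = 0.0602), 2 (0.078) or 4 (0.0849) or Brg1 deficient replicate 3 (0.0859), and the -1.48 without Apc deficient replicate 2 (0.0739).

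The genes that rose in Apc deficient mice were led by carriers of amino acids, folate and nucleosides. Slc1a4, an exchanger of alanine, serine and cysteine, was at 6.40, 6.54, 5.41 and 6.39 in controls, 6.09, 6.86, 5.08 and 5.51 in Brg1 deficient, 9.75, 10.33 and 9.80 in Apc deficient and 6.83, 7.86, 8.40 and 7.24 in Brg1-Apc deficient mice. Apc deficient arrays stood above all others and Brg1-Apc deficient arrays between them and the controls. The rise was 3.77 (SE 0.41, adjusted p = 1.81e-05), a 13.7-fold difference, and Brg1-Apc deficient mice differed by -2.37 from Apc deficient mice (adjusted p = 0.00203). The control and Brg1 deficient means of Slc1a4 were under 6.5, so it entered the set through the groups without Apc. Its rise over control is therefore not independent of the choice of the gene, and the p-value and fold of that rise are description only. Slc7a5, the light chain of the large neutral amino acid exchanger, was at 9.57, 9.07, 9.06 and 9.17 in controls, 9.13, 8.94, 7.51 and 7.04 in Brg1 deficient, 11.23, 12.32 and 12.14 in Apc deficient and 9.97, 10.46, 10.98 and 9.78 in Brg1-Apc deficient mice. The order of the groups was that of Slc1a4, with a rise of 2.68 (adjusted p = 0.000529) and a step of 2.14 between Brg1 deficient and Brg1-Apc deficient mice (adjusted p = 0.00413). The step down from Apc deficient mice, -1.6 (adjusted p = 0.0359), ended without Apc deficient replicate 2 (adjusted p = 0.197) or 3 (0.1) or without Brg1-Apc deficient replicate 1 (0.085), 2 (0.058) or 4 (0.108).

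**Figure D4:**
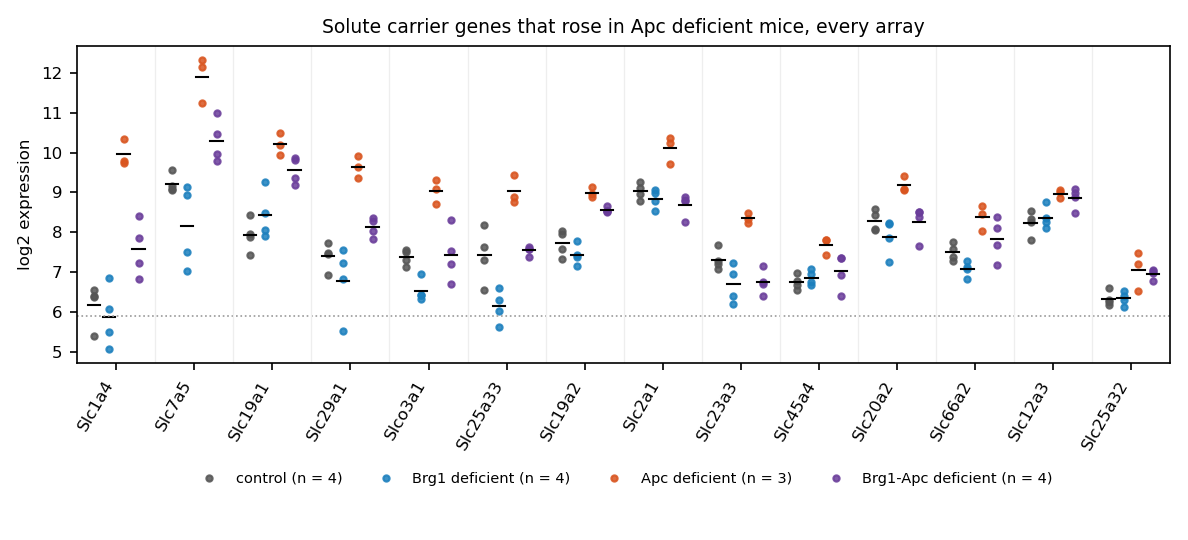
Log2 expression (vertical axis) on each of the 15 arrays of the 14 solute carrier genes that rose in Apc deficient mice against controls, ordered by the size of the rise from 3.77 (Slc1a4) to 0.73 (Slc25a32). Points are arrays, coloured by genotype, short bars are group means, and the dotted line is the highest array median over all probes (5.90).

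The level in Brg1-Apc deficient mice was set beside both neighbours for the genes called in Apc deficient mice. These comparisons share the Apc deficient or the control arrays, so the values stand side by side with no test of their relation. Of the 50 genes that fell with Apc lost, 49 had a Brg1-Apc deficient mean between the control and Apc deficient means, and the median difference from control was -2.22 in Apc deficient, -1.03 in Brg1-Apc deficient and -0.53 in Brg1 deficient mice. In 18 of the 50 the step from Apc deficient to Brg1-Apc deficient mice was called, and 17 were still called below control. Of the 14 that rose, 11 had a mean in between, 8 were called lower in Brg1-Apc deficient than in Apc deficient mice, and 3 (Slc19a1, Slc1a4 and Slc19a2) were still called above control. Their medians were 1.17, 0.48 and -0.35 in the same order. Both sets were chosen by their difference between Apc deficient and control mice on these same arrays. A Brg1-Apc deficient mean in between, and a called step back from Apc deficient mice, are partly given by that choice. The matching shares of all probes called in Apc deficient mice were not counted. Whether these counts are particular to the carriers is therefore not known.

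**Figure D5:**
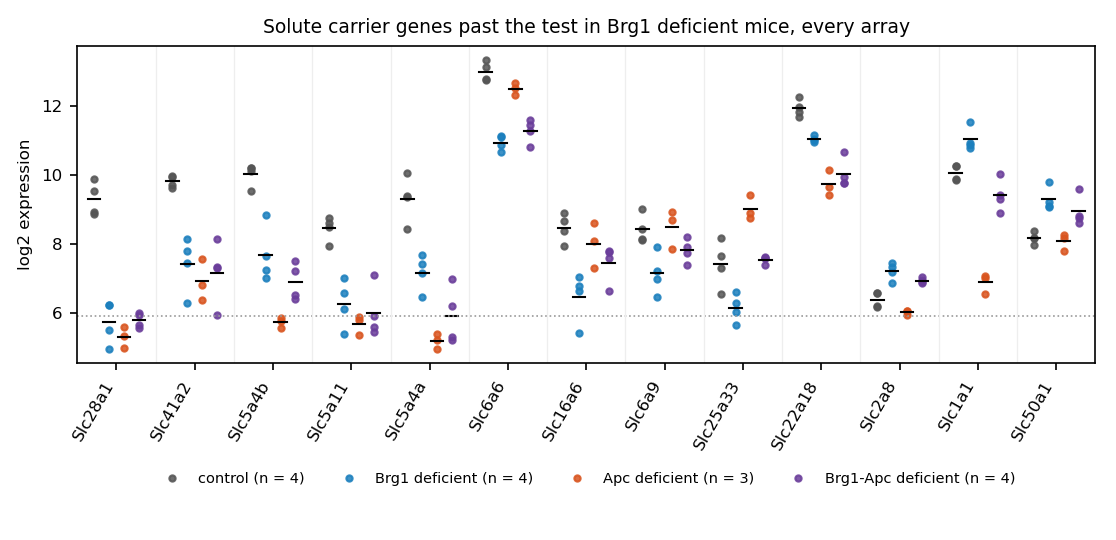
Log2 expression (vertical axis) on each of the 15 arrays of the 13 solute carrier genes past the test in Brg1 deficient against control mice, ordered from the largest fall (Slc28a1, -3.58) to the largest rise (Slc50a1, 1.12). Points are arrays, coloured by genotype, short bars are group means, and the dotted line is the highest array median over all probes (5.90).

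Loss of Brg1 can be read in both settings, since the comparison of Brg1 deficient mice with controls shares no array with that of Brg1-Apc deficient and Apc deficient mice. Over the 139 genes the 2 differences had a correlation of 0.187 across genes, which are not independent replicates. In both, 5 genes were called, 38.5% of the calls with Apc intact and 13.2% of those with Apc lost. All 5 had the same sign in both: Slc1a1, Slc2a8 and Slc50a1 up, and Slc6a6 and Slc25a33 down. The share of all probes called in both was not counted, so whether 5 is few or many is not known. Slc50a1, a sugar carrier of internal membranes, was at 8.39, 8.16, 8.17 and 7.98 in controls, 9.06, 9.22, 9.10 and 9.81 in Brg1 deficient, 7.80, 8.27 and 8.17 in Apc deficient and 8.76, 9.61, 8.80 and 8.62 in Brg1-Apc deficient mice. Both groups without Brg1 lay above both groups with it, without overlap. The rise was 1.12 with Apc intact (SE 0.23, adjusted p = 0.0126) and 0.87 with Apc lost (adjusted p = 0.0451), the latter ending without any of 12 of the 15 arrays (adjusted p between 0.0502 and 0.185). Slc2a8, a glucose carrier of internal membranes, showed the same order, 0.83 (adjusted p = 0.0139, and 0.0614 or 0.0563 without control replicate 1 or 2) and 0.92 (adjusted p = 0.00666). The rise of Slc1a1 with Apc intact, 0.97 (adjusted p = 0.0401), ended without any of 9 of the 15 arrays (adjusted p between 0.051 and 0.12). On the further probe of Slc1a1 neither rise was called (0.72 with Apc intact, adjusted p = 0.473, and 1.48 with Apc lost, adjusted p = 0.0758).

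The test of the difference between these effects of Brg1 loss called 13 of the 139 genes (9.35%, where 0.876% of all probes and 2.48% of the genes above the level were called, 0.638% of all probes as more positive and 0.237% as more negative). They were 7 of the 111 genes with every group mean above 6.5 and 6 of the other 28. In all 13 the effect was more positive with Apc lost than with Apc intact. Slc28a1, Slc5a4b and Slc5a4a among them fell with Brg1 lost and Apc intact, and in Apc deficient mice had group means under the dim mark of 5.90. For Slc13a2, which stayed bright in every group, the difference of effects was 3.59 (SE 0.58, adjusted p = 0.0117), between -1.17 and 2.42, of which only the second was called on its own. Slc13a2, Slc5a4b (3.50, adjusted p = 0.00877) and Slc28a1 (4.06, adjusted p = 0.000459) were the 3 genes whose call held whichever array was left out. Slc28a1 was above 6.5 in controls alone and its means in all 3 mutant groups were under 5.90, so the size of its difference of effects is not known from these arrays. The number called was between 3 and 7 when any 1 of the 4 control arrays, Apc deficient replicates 2 and 3, Brg1 deficient replicates 1 and 2 or Brg1-Apc deficient replicates 1 and 4 was left out, and 20 without Brg1 deficient replicate 4.

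Start regions were examined for letters of known factors because groups of carriers moved together. RefSeq windows were at hand for 111 of the 139 genes (146 windows). The E-box CACGTG, which reads the same on both strands, stood in 10.3% of these windows and in 7.15% of all 32851 windows of the same length. It occurred in 5 of the 44 genes with a window that fell in Apc deficient mice and in 2 of the 8 that rose. The TCF/LEF motif ATCAAAG, searched on both strands, stood in 4.11% and 3.73%, in 0 of those 44 and 1 of those 8. The shares for the HNF1 half-site GTTAAT were 5.48% and 7.10%, for AGATAA of the GATA factors 6.85% and 11.2%, and for TTTATNG of the CDX factors 5.48% and 10.9%, each on both strands. These stood in 6, 3 and 2 of the 44 genes that fell and in 1, 2 and 2 of the 8 that rose. Windows that hold the E-box in genes of either direction are shown, with the motif in capitals: Slc25a33, which rose with Apc lost (chr4:149774218-149774517, minus strand), and Slc5a1 (chr5:33103969-33104268, plus strand) and Slc36a1 (chr11:55204090-55204389, plus strand), which fell. All are build GRCm38.p6 and run from 250 bases before to 50 after the start. A match describes the letters of the window and nothing more.
Slc25a33: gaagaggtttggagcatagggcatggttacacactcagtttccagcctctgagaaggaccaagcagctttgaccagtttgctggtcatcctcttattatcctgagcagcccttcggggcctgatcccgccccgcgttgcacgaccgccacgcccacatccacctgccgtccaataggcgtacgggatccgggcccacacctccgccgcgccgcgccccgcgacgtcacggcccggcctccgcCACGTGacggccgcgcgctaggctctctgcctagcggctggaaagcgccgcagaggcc
Slc5a1: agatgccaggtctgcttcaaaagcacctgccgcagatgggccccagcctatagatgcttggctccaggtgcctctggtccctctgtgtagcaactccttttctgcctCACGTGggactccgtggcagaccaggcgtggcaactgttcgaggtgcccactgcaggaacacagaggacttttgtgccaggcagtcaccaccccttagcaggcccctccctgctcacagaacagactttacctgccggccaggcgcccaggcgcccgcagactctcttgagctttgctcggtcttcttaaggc
Slc36a1: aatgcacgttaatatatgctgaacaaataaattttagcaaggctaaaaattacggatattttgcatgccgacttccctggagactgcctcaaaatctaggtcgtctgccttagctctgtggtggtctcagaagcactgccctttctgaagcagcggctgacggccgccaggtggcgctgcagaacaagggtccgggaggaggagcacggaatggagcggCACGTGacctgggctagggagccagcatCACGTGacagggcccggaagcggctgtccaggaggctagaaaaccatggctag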

How the data were processed

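RNA of scraped jejunal epithelium from 15 mice was hybridised to Illumina bead arrays after labelling of 100 ng, per the labels. The deposited table holds 1 value per probe and array; the authors' background correction and normalization are not given in the sources used here. Values were read as log2 intensities, per the range of the deposited values (46 below 0); their scale is not written in the file. Gene names came from the platform annotation: 23976 probes had 1 symbol and 1719 none, which were tested but not named. All 139 members matched a RefSeq gene.

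A linear model with 1 mean for each genotype was fitted over all probes and the 15 arrays with limma 3.58.1 (lmFit and eBayes, R 4.3.3), leaving 11 residual degrees of freedom. Adjusted p-values are Benjamini-Hochberg over all probes, and a call is an adjusted p under 0.05. The fit was tested on simulated data. Replicates are separate animals only as far as the labels number them. The precision is limited by the number of arrays. Substrate classes and transport lists were written from textbook knowledge, and carriers of unsettled substrate were classed by family name. The 139 members, the classes and the lists were chosen with earlier results of these data known, and some class assignments were made once the member names had been seen. Named genes were those with the largest changes in a comparison, the brightest and those with the smallest F test p in each class, and those on the lists. Alternatives were a block for slide or for replicate number, single slides, quantile normalization, median centring, dim-probe filter, array weights, prior, probe choice, member level, groups in the fit and each array left out. Of the members, 49 had further probes.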

Additional observations from a re-analysis of the deposited data

Results flagged for a closer look

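Single arrays lay far from the 3 others of their group in 21 of the 312 gene and group combinations of 4 arrays examined, 6.7%, where chance gives about 1 in 20. Brg1 deficient replicate 4, the array with the narrowest spread, accounts for 6 of them, all low: Atp1b1 at 12.41, Slc35e1 at 9.924, Slc38a2 at 8.322, Slc5a8 at 8.118, Slc6a19 at 9.541 and Slc7a7 at 9.326. The other Brg1 deficient arrays so placed were replicate 1 for Slc46a1, low at 7.252, and replicate 2 for Slco3a1, high at 6.951. Among controls, replicate 3 was low for Abcc2 at 10.55, for Slc1a4 at 5.413 and for Slc6a8 at 12.76. Control replicate 1 was low for Slc3a2 at 5.436, control replicate 2 low for Slc4a1ap at 8.003 and Slc5a4b at 9.547, and control replicate 4 high for Slc30a6 at 8.336. In Brg1-Apc deficient mice, replicate 2 was low for Slc20a2 at 7.666 and for Slc30a5 at 9.462, replicate 1 high for Slc19a2 at 8.653 and low for Slc2a1 at 8.27, replicate 3 low for Aqp8 at 5.516 and replicate 4 high for Slc35e2 at 6.976.

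The effect of Brg1 loss with Apc lost exceeded that with Apc intact, by the test of the difference, in 13 carriers. On the log2 scale the excess was 4.063 for Slc28a1, 3.617 for Slc47a1, 3.591 for Slc13a2, 3.505 for Slc5a4b, 3.481 for Slc7a8, 3.058 for Slc26a6, 2.879 for Slc5a4a, 2.709 for Slc15a1, 2.67 for Slc25a45 and 2.518 for Slc5a11. It was 2.12 for Slc2a9, a urate carrier, 1.568 for Slc1a1 and 1.52 for Slc7a9. The call was kept on the further probe of Slc7a8 (3.04, adjusted p = 0.0233). It was not kept on those of Slc47a1 with means of 6.94 and 6.93 (1.89 and 2.35, adjusted p = 0.0603 and 0.0661). No further probe of Slc1a1, Slc2a9 or Slc7a9 gave the call.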

How the results depend on the processing

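Counts of carriers called are given in the order loss of Brg1, of Apc and of both against control, then loss of both against loss of Apc and against loss of Brg1, and last the difference of the Brg1 effects (13, 64, 25, 38, 15 and 13). With slide as a block they were 14, 62, 26, 38, 15 and 12. Whether replicate numbers pair the samples is not known. Of 21 same-numbered pairs, 8 had correlated deviations over 0.1 (range -0.179 to 0.275). Their median was 0.061, against -0.006 for pairs with different numbers. With the replicate number as a block the counts were 12, 63, 26, 37, 16 and 12. On slide 1 alone they were 5, 42, 18, 30, 12 and 4, and on slide 2 alone, with 1 Apc deficient array, 2, 14, 1, 0, 1 and 0, with fewer arrays in each fit; every call of the 5 comparisons had the same sign on both slides. The calls were chosen on these same arrays, so their shared signs are largely given by that choice. Fitting only the groups compared gave 47 for Brg1-Apc deficient against control and 6 against Brg1 deficient. Array weights gave 47 and, for the difference of effects, 21. A member level of 7.5 left 8 in Brg1 deficient mice. With every group mean above 6.5, 6, 16 and 7 were called for loss of Brg1 and loss of both against control and for the difference of effects. Without the fourth Brg1 deficient and the second Brg1-Apc deficient array together the first and last counts were 20 and 26. Leaving out 1 array at a time gave 8 to 17, 44 to 72, 16 to 45, 16 to 49, 9 to 28 and 3 to 20. The single reversed value was that of Slc39a4, Brg1-Apc deficient against Apc deficient, at -0.00208 on its most variable probe. The cause of these shifts was not tested. Carriers near the dim mark in a mutant group have an uncertain fold, and the number of arrays limits what can be called.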
